A study of Mus musculus with 6 samples.

Results

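TRPC channels were examined in hippocampal RNA of adult mice with and without CBP in forebrain excitatory neurons. The genes described are Trpc1, Trpc4, Trpc5, Trpc6 and Trpc7, 5 of the 55471 genes in the deposited count table. They are members of one gene family. The family was selected on the measured difference of Trpc6 between the genotypes in these same samples. Trpc6 stands on the study's list of reduced genes, which holds genes found in each of its CBP-ifKO screens. By the study's methods, the screen of pooled female hippocampi is among them, so the list is not independent of these samples. The genotype differences of the 5 genes are therefore given as a description, without a p-value, and nothing rests on them as evidence. All 5 passed the filter on low counts. Trpc2, of the same family, is described beside the members.

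The 6 libraries came from C57BL/6 mice (C57BL/6J by the study's methods) aged 3 to 6 months, with 3 libraries from control littermates (Control) and 3 from CBP-ifKO mice. In CBP-ifKO, both a floxed Crebbp allele and the Camk2a-creERT2 driver were present, so that tamoxifen removed CBP, a histone acetyltransferase and transcriptional coactivator, from neurons in which the Camk2a promoter is active. Both groups received 5 intragastric doses of tamoxifen (20 mg/mL in corn oil), and the protocol describes the controls as lacking the driver, whereas their description field names the driver alone. Esr1, part of which is carried by the driver, reached 5.65 to 6.29 CPM (a gene's counts relative to the library's total, with totals scaled by the TMM method) across Control and 63.6 to 69.4 CPM across CBP-ifKO. By the study's methods each library was made from pooled hippocampi of 3 females. Glia, interneurons and vascular cells keep CBP in this model and are present in whole hippocampus.

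TRPC channels are cation channels of the plasma membrane that let calcium and sodium enter the cell when receptors coupled to Gq proteins, or receptor tyrosine kinases, activate phospholipase C. TRPC6 and TRPC7 are opened by diacylglycerol. TRPC4 and TRPC5 form another subfamily, and TRPC1 assembles with them. In hippocampal neurons these channels are known for slow depolarizations after metabotropic receptor activation, and TRPC6 is known for promoting dendritic growth and spine formation.

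Total counts ranged from 10199008 to 14950257 per library, and 17981 genes were tested. The targeted gene Crebbp averaged 191.2 ± 30.1 CPM in Control against 98.4 ± 10.8 CPM in CBP-ifKO (SD, n = 3), a log2 difference of -0.96 ± 0.10 (SE; adjusted p 3.63e-05 by edgeR). Its paralogue Ep300 averaged 100.9 ± 17.5 CPM against 114.1 ± 7.80 CPM (edgeR adjusted p 0.321). Of all genes tested, 897 were called lower and 252 higher (edgeR, adjusted p under 0.05). Lower genes made up 78.1% of the calls, against 56.5% when libraries were scaled by their totals, 66.1% with trends on GC content and length removed, and 60.6% when a replicate block was added to the latter. Markers of excitatory neurons (Slc17a7, Neurod6 and Camk2a) summed to between 2446 and 2861 CPM over Control and between 2583 and 2954 CPM over CBP-ifKO. Camk2a, whose promoter drives the recombinase, was most of that sum, while Neurod6 ran from 181.2 to 197.8 CPM in Control and, without overlap, from 169.3 to 180.4 CPM in CBP-ifKO (not called, edgeR adjusted p 0.232).

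Trpc6 was the member with the largest difference. It lies on chromosome 9, from 8544142 to 8680741 (GRCm38, plus strand), and its exons overlap no other annotated gene. In the Control libraries, replicates 1 to 3, Trpc6 reached 71.4, 79.2 and 73.0 CPM, and in the CBP-ifKO libraries 39.4, 45.6 and 41.8 CPM. The groups were far apart, with the highest CBP-ifKO value well under the lowest Control value, and 13.9% of all genes tested were lower without overlap. Trpc6 averaged 74.5 ± 4.13 CPM against 42.3 ± 3.11 CPM (SD, n = 3), so that CBP-ifKO stood at 56.8% of Control. In whole tissue, fewer cells of a type and less RNA per cell cannot be told apart. On the log2 scale the difference was -0.81 (SE 0.075), that is, 1.76-fold lower, with a range of 1.67 to 1.85-fold at 1 standard error. Among the 897 genes called lower, 117 had a larger fall, and the median fall of those genes was -0.43 on the log2 scale. The replicates of Trpc6 varied by 5.55% in Control and 7.36% in CBP-ifKO (coefficient of variation), where counting error alone would give 3.52% and 4.32%.

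Trpc1, whose product is a widely expressed channel subunit that combines with TRPC4 and TRPC5, had slightly higher values in CBP-ifKO, a difference that did not pass the threshold. It lies on the same chromosome as Trpc6, at 95705082 to 95750375 on the minus strand. The Control values of Trpc1 were 82.0, 79.9 and 85.5 CPM, replicates 1 to 3, and the CBP-ifKO values 90.9, 100.4 and 91.5 CPM. The groups did not overlap, as was so in the higher direction for 11.8% of all genes tested, but they lay close together. The mean was 82.4 ± 2.84 CPM against 94.3 ± 5.30 CPM (SD, n = 3), and the log2 fold change of 0.20 (SE 0.066) was not called by edgeR or DESeq2. It was called higher in 2 of 17 alternative fits, with libraries scaled by their totals (0.24), which moved the median of all genes tested from -0.0033 to 0.043, and with GC and length trends removed under a replicate block (0.19).

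**Figure D1:**
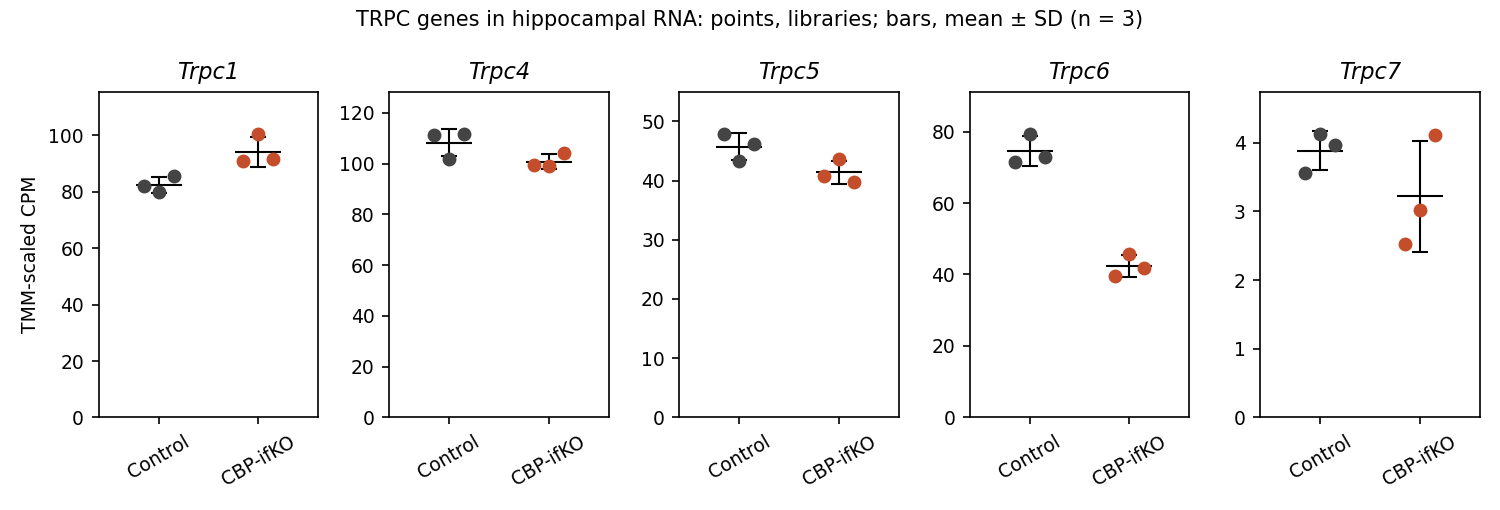
TMM-scaled CPM of the 5 TRPC genes in each library, 1 panel per gene with the y axis starting at 0; points are libraries and black bars the mean ± SD of 3 Control (grey) or 3 CBP-ifKO (orange) libraries. Trpc6 ran from 71.4 to 79.2 CPM in Control and from 39.4 to 45.6 CPM in CBP-ifKO, whereas Trpc4, Trpc5 and Trpc7 overlapped between the groups.

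Because CBP is recruited to DNA by CREB and other factors, the promoter windows of the family were searched for the letters TGACGTCA (the full cAMP response element), TGACG (its first bases, contained in the full element) and TGANTCA (an AP-1 site), on both strands. The windows, from RefSeq on GRCm38.p6, span 250 bases before to 50 bases after each gene's start, and the 5 members and Trpc2 had an entry. The RefSeq start of Trpc7 lies 204 bases past its GENCODE start, and only 46 bases of its window lie upstream of both. For Trpc4 the RefSeq start lies 22 bases past the GENCODE start. TGACGTCA was found in 0 of the 6 windows and in 1.79% of all 32851 windows, and TGANTCA in 0 of 6 and in 7.81%. TGACG was found in 3 of 6 windows, those of Trpc1, Trpc2 and Trpc6, and in 20.8% of all windows. The bases upstream of the annotated starts are shown 5′ to 3′ for the members whose groups did not overlap, with lower values (Trpc6, chr9:8543892-8544141, plus strand) and with higher values (Trpc1, chr9:95750376-95750598, minus strand), with TGACG or its reverse complement in capitals.
Trpc6: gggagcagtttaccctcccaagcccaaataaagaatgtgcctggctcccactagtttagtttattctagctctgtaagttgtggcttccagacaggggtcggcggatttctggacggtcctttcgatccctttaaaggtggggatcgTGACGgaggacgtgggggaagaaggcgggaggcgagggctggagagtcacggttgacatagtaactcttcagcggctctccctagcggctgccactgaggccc
Trpc1: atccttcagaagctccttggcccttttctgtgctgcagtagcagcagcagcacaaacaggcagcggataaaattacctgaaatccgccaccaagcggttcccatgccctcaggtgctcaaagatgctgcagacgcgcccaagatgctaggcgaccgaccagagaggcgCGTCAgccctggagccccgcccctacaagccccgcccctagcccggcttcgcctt
The Trpc6 site begins 103 bases before the start. The Trpc1 site begins 82 bases before the RefSeq start, which lies 27 bases past the GENCODE start where the stretch shown ends, and a further TGACG in Trpc1 lies 13 bases past the RefSeq start, outside the stretch shown. The stretches had a GC content of 56.4% for Trpc6 and 61% for Trpc1. A match of these letters describes the sequence and does not show that a factor binds there.

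The other members overlapped between the genotypes. Trpc4, which encodes a channel opened downstream of Gq-coupled receptors (chromosome 3, 54156035 to 54318471, plus strand), had the highest mean CPM of the 5 genes in both groups, at 111.4, 101.9 and 111.5 in Control and 99.3, 98.9 and 104.0 in CBP-ifKO. It averaged 108.3 ± 5.49 CPM against 100.8 ± 2.83 CPM (SD, n = 3; log2 fold change -0.10, SE 0.063). The lowest Control library was below the highest CBP-ifKO library. Trpc5, the closest relative of Trpc4 (chromosome X, 144381671 to 144688180, minus strand), had 47.8, 43.3 and 46.1 CPM in the Control libraries and 40.8, 43.6 and 39.8 CPM in the CBP-ifKO libraries. The log2 fold change of Trpc5 was -0.14 (SE 0.076), with CBP-ifKO replicate 2 inside the Control range. Trpc7, another diacylglycerol-sensitive channel (chromosome 13, 56773113 to 56895993, minus strand), was scarce, with 38, 48 and 40 counts in Control and 26, 46 and 50 counts in CBP-ifKO.

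In CPM, Trpc7 was at 3.57, 4.12 and 3.97 in Control and at 2.52, 3.02 and 4.11 in CBP-ifKO. Counting error alone gives a coefficient of variation of 15.4% in Control and 15.7% in CBP-ifKO at this depth. The log2 fold change of -0.27 for Trpc7 had an SE of 0.21, so that a difference of this size was not detectable here. Of the 5 members, 1 was called lower and 0 higher by edgeR, where 4.99% of all genes tested were called lower and 1.4% higher. Likewise 1 member was lower and 1 higher without overlap between the groups, beside 13.9% and 11.8% of all genes tested. DESeq2 also called 1 member lower and 0 higher, against 4.66% and 1.18% of its genes with an adjusted p. These counts include the gene that led to the choice of the family, so nothing is read from them. The median log2 fold change of the members was -0.14, beside -0.0033 for all genes tested.

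**Figure D2:**
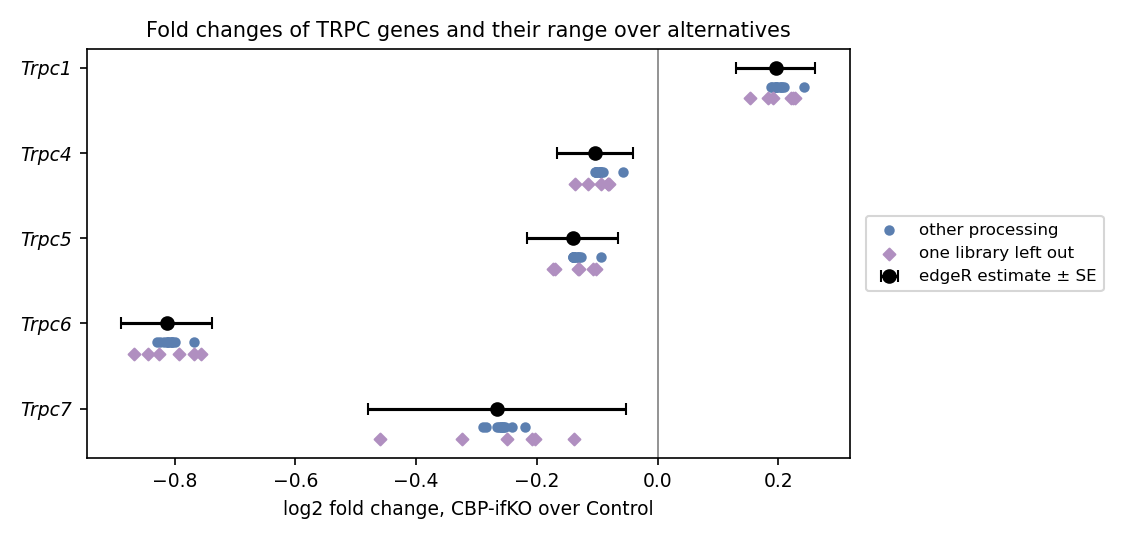
Log2 fold change of each TRPC gene, CBP-ifKO over Control; black points and bars are the edgeR estimate ± SE, blue points the other processing choices and purple diamonds the fits with 1 library left out. Trpc6 stayed between -0.87 and -0.76 and Trpc1 between 0.15 and 0.24, and every gene stayed on its side of 0.

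The plot of fold changes shows how far each estimate moved with the processing. Trpc6 was called lower in all 17 alternative fits, including each fit without one of the libraries, and reached -0.82 with GC and length trends removed. All fits draw on the libraries from which Trpc6 was selected, so these calls describe the processing and are no further evidence. Trpc7 moved most, from -0.46 to -0.14, both ends coming from fits without a library. Without CBP-ifKO replicate 3, the library with 50 counts, it stood at -0.46, and it was not called in any fit.

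Trpc2, a channel of pheromone-sensing neurons in mice, was listed at 0 in all 6 libraries. A count of 0 allows up to 3 counts, or 0.197 to 0.297 CPM depending on the library, for counting error only. However, Trpc2 shares 97.5% of its exon bases with the readthrough gene Xntrpc on the same strand, which itself had at most 6 counts, and reads in shared exons cannot be assigned to one of the genes.

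Levels of different genes were compared per length, as CPM per kilobase of the exon length in the deposited table. In Control the order was Trpc6 (14.7 ± 0.82), Trpc4 (13.5 ± 0.68), Trpc1 (10.3 ± 0.35), Trpc5 (9.12 ± 0.45) and Trpc7 (1.0 ± 0.074; SD, n = 3). The ranges of neighbours in this order did not overlap, although Trpc6 (lowest 14.1) and Trpc4 (highest 13.9) came close. In CBP-ifKO the order was Trpc4 (12.5 ± 0.35), Trpc1 (11.7 ± 0.66), Trpc6 (8.35 ± 0.61), Trpc5 (8.26 ± 0.39) and Trpc7 (0.83 ± 0.21). There Trpc4 and Trpc1 overlapped, as did Trpc6 and Trpc5. Trpc6 thus moved from rank 1 to rank 3. The exon length counts all annotated isoforms, and with the length of the longest transcript Trpc4 stood at rank 1 and Trpc6 at rank 2 in Control, and Trpc6 again at rank 3 in CBP-ifKO.

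**Figure D3:**
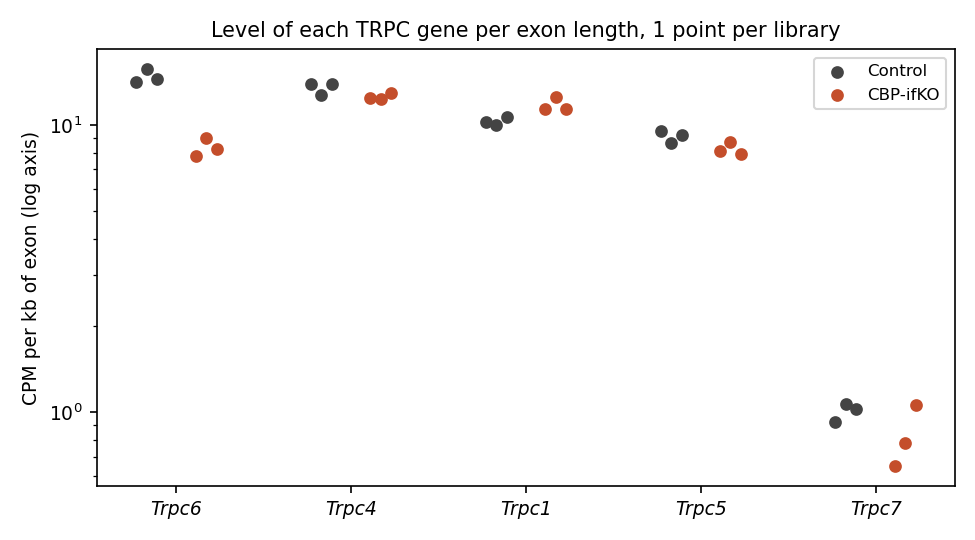
CPM per kilobase of exon (log axis) of the 5 TRPC genes, ordered by their Control mean, with 1 point per library for Control (grey) and CBP-ifKO (orange). Trpc6, Trpc4, Trpc1 and Trpc5 lay between 7.79 and 15.6, and Trpc7 at or below 1.063.

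As a share of the summed per-length level of the 5 members, Trpc6 made up 29.0%, 32.6% and 29.3% in the Control libraries and 19.3%, 20.8% and 19.8% in the CBP-ifKO libraries. With the length of the longest transcript its mean share was 27.2% in Control and 17.6% in CBP-ifKO. The diacylglycerol-sensitive genes Trpc6 and Trpc7 together had a summed level of 15.7 ± 0.88 in Control and 9.18 ± 0.68 in CBP-ifKO (CPM per kilobase, SD, n = 3). Trpc6 was 93.6 ± 0.25% of that sum in Control and 91.0 ± 2.06% in CBP-ifKO, the larger part in both groups. The summed level of Trpc1, Trpc4 and Trpc5 ran from 31.3 to 33.7 in Control and from 31.8 to 33.5 in CBP-ifKO. Within that sum, Trpc1 went from 31.2 ± 0.77% to 36.1 ± 1.09%. The ratio of the per-length levels of Trpc6 and Trpc1 was 1.38, 1.57 and 1.35 in Control and 0.688, 0.720 and 0.724 in CBP-ifKO.

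Trpc6 is known from dentate granule cells and, outside neurons, from vascular smooth muscle, so markers of these and other cells are given beside it. The 6 dentate granule markers summed to 365 to 406 CPM over Control and 393 to 432 CPM over CBP-ifKO, with Tdo2 called lower (log2 fold change -0.89) and Lct called higher (0.71). The 8 mural cell markers summed to 221 to 241 CPM over Control and 177 to 225 CPM over CBP-ifKO, with Vtn (-0.40) and the smooth muscle myosin gene Myh11 (-0.70) called lower. The 5 CA1 pyramidal markers summed to 349 to 361 CPM over Control and 222 to 236 CPM over CBP-ifKO, with 4 called lower by edgeR, of which Pou3f1 was not called by DESeq2 (adjusted p 0.0875), and the 5 CA2 markers to 154 to 178 and 95.5 to 97.9 CPM, with Rgs14 and Necab2 called lower. The other CA2 markers were not called, with log2 fold changes of 0.50 (Map3k15), -0.11 (Amigo2) and -0.018 (Cacng5). The CA3 list (88.3 to 99.3 against 74.3 to 84.8 CPM) had no gene called. No gene of these lists was at 0 in all libraries, and the part of any of these cells in the Trpc6 difference was not tested.

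Among the remaining lists, the interneuron list (541 to 565 against 484 to 512 CPM) had Sst and Slc32a1 called lower, Slc32a1 not by DESeq2 (adjusted p 0.116), and the striatum list (32.9 to 38.5 against 32.2 to 34.6 CPM) had Rgs9 called higher. The other interneuron markers were not called, with log2 fold changes of -0.060 (Gad1), -0.077 (Gad2), -0.19 (Pvalb), -0.19 (Lhx6) and 0.16 (Vip). The Cajal-Retzius, astrocyte, oligodendrocyte, microglia, endothelial, choroid plexus, lateral septum and thalamus lists had no gene called. Lateral septum, a neighbouring region in which Trpc4 is abundant, had low marker levels, 10.8 to 12.5 CPM over Control and 8.92 to 10.4 CPM over CBP-ifKO.

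The genes around TRPC channels were counted in lists that run from receptors to downstream calcium sensors. Of 117 genes, 104 were tested, of which 16 were called lower and 2 higher (17.3% called, beside 6.39% of all genes tested; edgeR, adjusted p under 0.05). The median log2 fold change was -0.10, with 71 genes negative and 33 positive. The list was put together with earlier results of these data known and the count is a description. It fell to 8 without Control replicate 3 and to 8 without CBP-ifKO replicate 3. The calls of Htr2a, Plch2, Dgki, Prkcb, Calm3 and Camk4 held in every alternative fit, and those of the other 12 were lost in at least 1.

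Of 18 Gq-coupled receptors tested, 3 were called lower: the serotonin receptor gene Htr2a, the cholecystokinin receptor gene Cckbr and the muscarinic receptor gene Chrm3. Htr2a had 30.6, 26.2 and 27.1 CPM in the Control libraries and 16.2, 17.9 and 16.4 CPM in the CBP-ifKO libraries, without overlap, with a log2 difference of -0.73 ± 0.099 (SE; adjusted p 3.35e-04 by edgeR). Cckbr had a log2 fold change of -0.85 (adjusted p 0.0108), and Chrm3, the gene of a muscarinic receptor that opens TRPC channels in expression systems, one of -0.29 (0.0254). Of 16 genes for Gq proteins and phospholipases C, the phospholipase gene Plch2 alone was called (-0.58, adjusted p 2.86e-04), with 2.33% of its exon bases shared with an antisense gene. The main neuronal isoform Plcb1 averaged 464 CPM against 454 CPM and was not called.

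Diacylglycerol is the lipid that opens TRPC6, and it is removed by diacylglycerol kinases and lipases. Of 11 such genes tested, 6 were called lower and 1 higher. Dgki (-0.36, adjusted p 0.00182), Dgkb (-0.28, 0.00619) and Dgkz (-0.27, 0.0122) encode kinases, and Dagla (-0.40, 0.00380) encodes the lipase that makes the endocannabinoid 2-arachidonoylglycerol. Dgkz and Dagla were no longer called with GC and length trends removed (adjusted p 0.469 and 0.0827). Of the 17 alternative fits, Dgkz was called in 13 and Dagla in 16. Dgka was the gene called higher (0.47, adjusted p 0.0238). Of 7 protein kinase C genes, all had negative log2 fold changes and Prkcb (-0.43, adjusted p 3.35e-04) and Prkce (-0.24, 0.0430) were called lower. Prkce shares 6.5% of its exon bases with a gene on the same strand, and Dgkz 3.54% and Dgka 2.2% of theirs with genes on the opposite strand, whose reads cannot be told apart without strand information.

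In the list of store-operated entry and inositol trisphosphate receptors, the calcium sensor genes Stim1 and Stim2 moved in opposite directions, with log2 fold changes of 0.26 (adjusted p 0.0361) and -0.23 (0.0351), and the other 7 genes were not called. Stim1 had 54.7, 52.8 and 56.7 CPM in the Control libraries and 66.1, 62.0 and 68.1 CPM in the CBP-ifKO libraries, and Stim2 had 181.5, 165.2 and 163.2 CPM against 142.9, 148.3 and 144.7 CPM. Neither gene overlapped between the groups. Each call was lost in 5 of the 6 fits without one library, holding only without CBP-ifKO replicate 2 for Stim1 (other adjusted p 0.0542 to 0.148) and without Control replicate 2 for Stim2 (0.0761 to 0.163), and Stim2 was also lost with upper-quartile factors (0.0518) and with library totals (0.101). Among 18 partners and modifiers of TRPC channels, Calm3, a calmodulin gene, was called lower (-0.33, adjusted p 0.00427). Among 12 downstream calcium sensors, Camk4, a kinase that phosphorylates CREB (-0.53, adjusted p 3.45e-04), and Ppp3r1, the regulatory subunit of calcineurin (-0.24, 0.0126), were called lower. Ppp3r1 shares 14.3% of its exon bases with Wdr92 on the same strand, and Camk4 2.21% with an antisense gene.

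**Figure D4:**
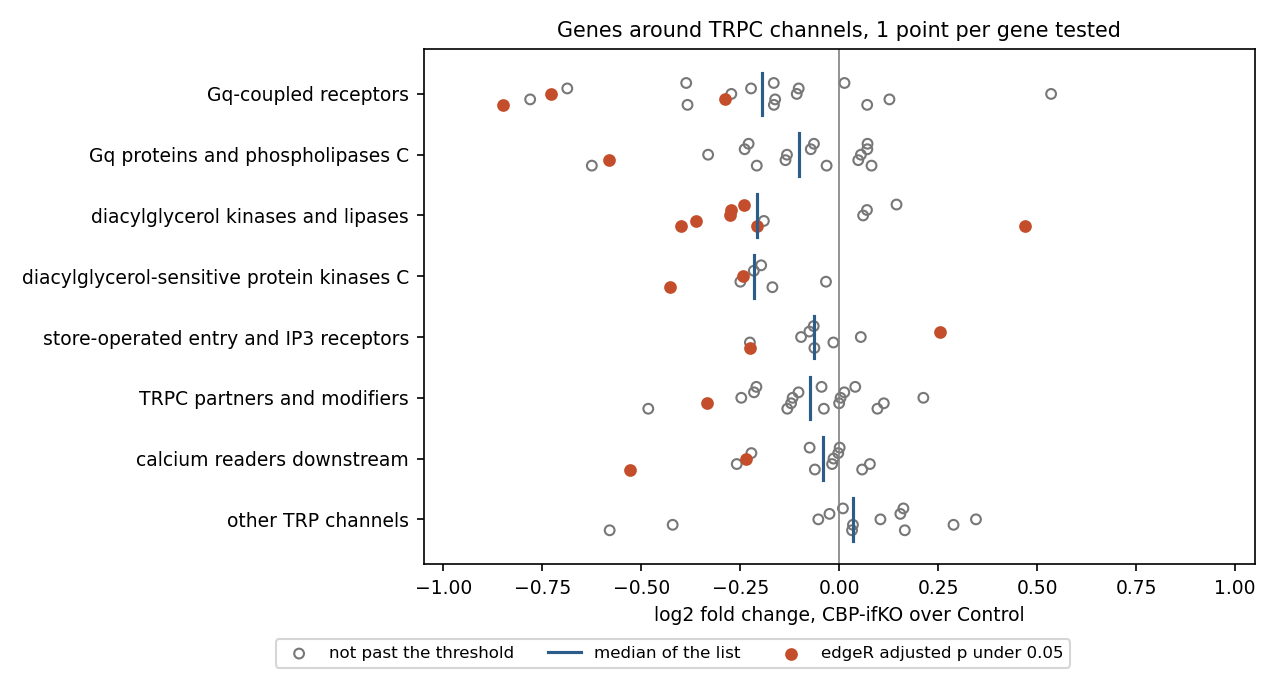
Log2 fold change, CBP-ifKO over Control, of the genes in each list around TRPC channels, with 1 point per gene tested, filled where the edgeR adjusted p was under 0.05 and with a blue line at the median of the list. The diacylglycerol kinases and lipases had 7 of 11 genes filled, and the other TRP channels 0 of 13, where 6.39% of all genes tested were called.

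Other TRP channels share the fold of the pore but respond to temperature, metabolites or lysosomal lipids. They gave 0 calls among 13 genes tested of 21, where 6.39% of all genes tested were called. At that share, 13 genes are too few for 0 calls to set the list apart. Their median log2 fold change was 0.035, with 9 genes positive and 4 negative. The most abundant, Trpm3, averaged 180.6 CPM against 174.1 CPM (log2 fold change -0.053, edgeR adjusted p 0.710).

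The genes whose pattern over the 6 libraries was most like that of Trpc6 were sought by Pearson's r of log2 CPM among 17430 genes with a mean of at least 1 CPM. The 5 highest were Fcer1g (0.997), Rasd1 (0.996), Nrip3 (0.994), Mycl (0.994) and Evpl (0.993). Fcer1g encodes the common signalling chain of Fc receptors, Rasd1 a small GTPase induced by glucocorticoids, Mycl a MYC family factor and Evpl envoplakin. All 5 were lower in every CBP-ifKO library than in every Control library, and the genotype difference takes part in r. With the group means removed, r was 0.917, 0.933, 0.874, 0.844 and 0.787 in the same order, over libraries that share their scaling. The 5 genes were chosen for the highest r over the same 6 libraries, which favours a high r within groups as well. These values are therefore no separate check. The log2 fold changes of the 5 genes ran from -0.71 (Evpl) to -0.28 (Nrip3), each smaller than that of Trpc6. Rasd1, Nrip3 and Mycl were called lower. Evpl (1.16 to 2.15 CPM, SE 0.27) and Fcer1g (2.6 to 3.9 CPM, SE 0.20) were scarce and not called.

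**Figure D5:**
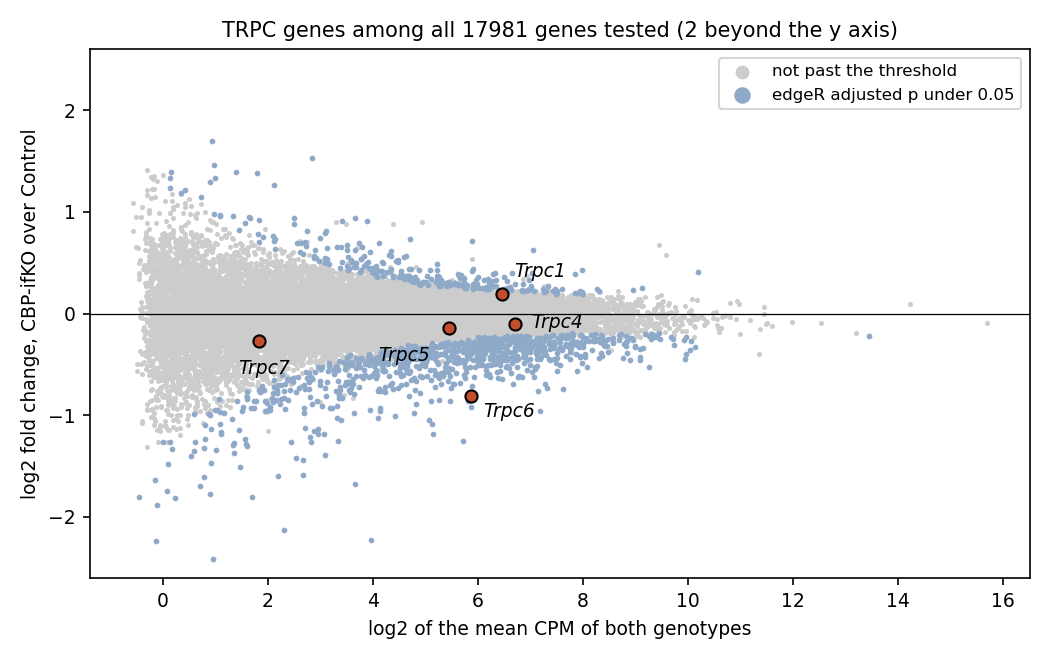
Log2 fold change, CBP-ifKO over Control, against the log2 of the mean CPM for all 17981 genes tested, with genes past the edgeR threshold in blue and the TRPC genes as large points (the 5 members). Trpc6 lies among the genes called lower, Trpc1 at the upper edge of the genes not called, and 2 genes fall beyond the y axis.

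Where the family stood among all genes is shown by the plot of fold change against level. In Control, Trpc4, Trpc1 and Trpc6 exceeded 88.6%, 84.9% and 83.2% of the genes tested in CPM, Trpc5 74.3% and Trpc7 27.3%. Trpc1, Trpc4, Trpc5 and Trpc6 thus had SEs of the log2 fold change between 0.063 and 0.076, against 0.21 for Trpc7.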

How the data were processed

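RNA-seq of hippocampus was analysed in 6 samples, 3 Control and 3 CBP-ifKO, grouped by title. Per the labels, reads were single-end, 50 bp. The authors trimmed adapters (Trim Galore 0.6.4), aligned reads to GRCm38 with STAR (version 2.6.1), kept reads with mapq above 10 and counted them over exons of Ensembl release 99 genes with Rsubread. The values deposited are raw counts per gene, without normalization, beside an exon length. Whether strand was used is not given in the sources used here. Of 55471 identifiers, 55230 matched GENCODE M21 of the same build, which supplied symbols and positions.

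Genes passing filterByExpr (minimum count 10, minimum total 15) were tested with edgeR 4.0.16 (quasi-likelihood F-test, TMM scaling, R 4.3.3), with Benjamini-Hochberg adjustment over all genes and a threshold of 0.05. The SE is the size of the log2 fold change divided by the square root of F. DESeq2 1.42.0, which the study used (version 1.30.1), and limma-voom (limma 3.58.1) were alternatives, beside other scalings and filters, each library left out, a replicate block, and removal of per-library trends on GC content and length (natural splines, 5 degrees of freedom). The fit was tested on simulated counts. P-values measure the spread between pooled samples. The members and lists were chosen with earlier results of these data known. Named genes were the TRPC family, Crebbp, Ep300 and Esr1, up to 4 called genes of a pathway list by adjusted p or else its most abundant gene, marker genes, and the 5 genes most like Trpc6. One gene of the lists is not reported here. Dgka was named after its value was seen. Deviations from the group means were hardly shared by samples of the same number (r 0.079, 0.037 and -0.0015), and the numbers were not taken as pairs. Replicates differed by more than sampling noise (chi-square per degree of freedom at least 2.32).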

Additional observations from a re-analysis of the deposited data

How the results depend on the processing

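The log2 fold changes of the 5 TRPC genes moved by less than 1 SD between replicates and kept their sign in each of 17 alternative fits. Over the 6 fits without one library they ran from -0.87 to -0.76 for Trpc6, from 0.15 to 0.23 for Trpc1, from -0.14 to -0.080 for Trpc4, from -0.17 to -0.10 for Trpc5 and from -0.46 to -0.14 for Trpc7. The number of TRPC genes called rose from 1 to 2 with libraries scaled by their totals and with offsets for GC and length added to the replicate block, Trpc1 being added, and the cause was not tested. With the replicate block alone, Trpc6 stood at -0.82, Trpc1 at 0.19, 1 TRPC gene and 1210 genes were called, and 19 pathway genes were. Over all genes, 1149 were called, 1854 with the replicate block and the offsets, 476 at an adjusted p under 0.01, which is stricter by construction, and 498 to 1326 without one library (546 when Control replicate 3 was left out, and 498 and 526 for CBP-ifKO replicates 2 and 3). The pathway genes called ran from 8 to 22 in those fits, which have fewer samples. Per kilobase of the longest transcript, Trpc4 took rank 1 and Trpc6 rank 2 in Control. Depth limits Trpc7 and Trpc2.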
